A study of Mus musculus with 9 samples.

Results

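The urea cycle genes and their periportal nitrogen partners were examined in whole mouse liver. The 10 genes were taken by symbol from the deposited counts, which list 55401 genes: Nags, Cps1, Otc, Ass1, Asl, Arg1, Slc25a15, Gls2, Hal and Sds. All 10 were detected in every liver and passed the filter on low counts. HCC (hepatocellular carcinoma) was induced in female mice by hydrodynamic tail vein injection of sleeping beauty plasmids, and the study asked how gene expression in the liver differed with HCC and with miR-22. The mice were FVB/N and 6 weeks old when obtained, per the protocol, although another label names the strain C57BL/6. Healthy livers came from wild-type mice given neither oncogenes nor virus, and no age at harvest is stated for them. Untreated HCC livers came from mice given the oncogenes and, 1 week later, a blank AAV8, an adeno-associated virus that infects hepatocytes. miR-22-treated HCC livers came from mice given the same oncogenes and, at the same time, AAV8 carrying miR-22 under a CMV promoter, which is not limited to hepatocytes. Both HCC groups were harvested 5 weeks after the oncogenes. The series design names RAS/AKT as the oncogenes, while the plasmids listed in the protocol are activated AKT, Nras-v12 and N90-β-catenin.

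Each group held 3 livers, with 16664659 to 23908392 counts per liver. The replicate numbers run from 1 to 3 in healthy livers and from 2 to 4 in both HCC groups. The labels do not state whether the livers of a group share a litter, cage or injection day, so p-values measure only the spread between these livers. Hepatocyte markers were abundant in all 9 livers, with Alb, Apoa1, Ttr and Trf summing to 128800 to 138600 CPM in healthy, 76250 to 88430 in untreated and 97550 to 108800 in miR-22-treated livers. CPM are counts scaled to a common library size after TMM scaling, which sets libraries level on the bulk of their genes. Akt1, whose row can also collect transgene reads, was at 103 to 109 CPM in healthy, 1170 to 1673 in untreated and 672 to 1104 in miR-22-treated livers. Mir22hg, the host transcript of miR-22, was at 56.5 to 70.8 CPM in healthy, 13.3 to 20.6 in untreated and 27.9 to 32.7 in miR-22-treated livers. Mature miRNAs are too short for these libraries, and the Mir22 row held 0 counts in every library.

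The urea cycle turns ammonia, which is toxic to the brain, into urea for excretion. The full cycle runs in hepatocytes, mainly in the periportal zone where blood enters the lobule, and begins in the mitochondria. There Nags makes N-acetylglutamate, the obligate activator of Cps1, and Cps1 condenses ammonia and bicarbonate into carbamoyl phosphate. Otc joins carbamoyl phosphate to ornithine, which the carrier Slc25a15 brings into the mitochondria, and the product citrulline leaves for the cytosol. There Ass1 adds aspartate, Asl splits argininosuccinate and Arg1 releases urea. Gls2 (liver-type glutaminase), Hal (histidine ammonia-lyase) and Sds (serine dehydratase) each release ammonia from an amino acid.

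miR-22 silences mRNAs that pair with its seed (bases 2 to 8), so its mature sequence is shown with the places in the 10 genes that match it. The mature miRNA is from RefSeq (GRCm38.p6, chr11:75463772-75463793, plus strand), and its seed stands in capitals.
mmu-miR-22-3p: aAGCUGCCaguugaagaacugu
The reverse complement of the seed, GGCAGCT, was searched in the 3′ UTR of each gene's canonical transcript (GENCODE vM39 on GRCm39). It was found once each in Ass1, Hal and Nags, and the match stands in capitals within 29 bases of mRNA sequence.
Ass1 3′ UTR, match at base 202 of 255: ggagggtggcgGGCAGCTgcagaaagcat
Hal 3′ UTR, match at base 601 of 2982: agacagagacaGGCAGCTcctgggggctc
Nags 3′ UTR, match at base 76 of 406: gggtgaccccaGGCAGCTgaggggaagaa
A match was thus present in 3 of 10 genes, and in 16.9% of the 13246 tested genes with an annotated 3′ UTR. The median 3′ UTR was 462 bases in the 10 genes and 1350 bases in all. None of the 3 matches was followed by an A. Ass1 and Hal were higher in miR-22-treated than in untreated HCC, and Nags did not pass the test, with values below. A match is a description of the letters and not evidence of a site in use.

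All 10 genes fell in untreated HCC, to between 15.5% (Hal) and 49.8% (Nags) of the healthy mean, and 8 of 10 were still called lower when scaled to hepatocyte secretory counts. Under miR-22, 8 of 10 were higher than in untreated HCC, by 2.17-fold (Ass1, Arg1) to 4.67-fold (Sds), while Nags and Slc25a15 were not called. The treated livers stayed below healthy livers for 9 of 10 genes, Sds being the exception. That count was 4 when scaled to hepatocyte secretory counts (2.41% of all genes tested were lower there), 2 (Cps1 and Gls2, against 1.87% of all genes) when tested against 1.5-fold itself with glmTreat, and 7 (against 5.55%) with the replicate block, where Hal and Slc25a15 lost the call. With glmTreat 5 of 10 genes were higher with miR-22, without Cps1, Ass1 and Hal, against 2.63% of all genes. The 10 genes together made up 1.23% ± 0.0954 of all counts in healthy, 0.363% ± 0.066 in untreated and 0.696% ± 0.158 in treated livers (SD, n = 3). The calls are those of edgeR's quasi-likelihood test over 15717 genes and need both a fold change above 1.5 and an adjusted p (Benjamini-Hochberg) below 0.05. Whole liver was sequenced, so fewer hepatocytes and less RNA per hepatocyte cannot be told apart.

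**Figure D1:**
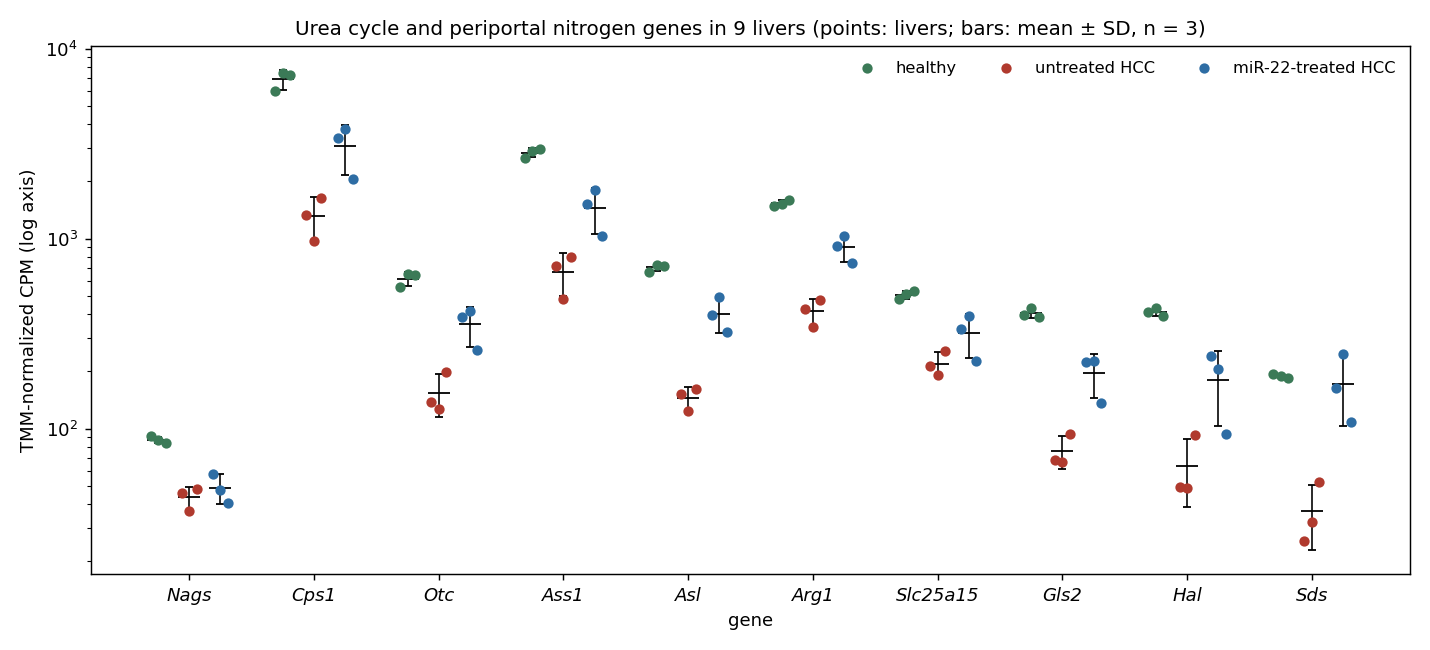
Level of each gene (horizontal axis) in TMM-normalized CPM on a log axis, with 1 point per liver and black bars for the mean ± SD of 3 livers per group. Untreated HCC lies below healthy for all 10 genes without overlap, and miR-22-treated HCC lies between both for every gene except Sds, which reaches the healthy range, and Nags and Slc25a15, which overlap untreated HCC.

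The background to these counts was large in the comparison of untreated HCC with healthy livers, where 18.1% of all tested genes were called lower and 22.7% higher. In miR-22-treated against untreated HCC, 8.32% of tested genes were called higher and 5.47% lower, and in miR-22-treated HCC against healthy livers 7.05% were called lower and 16.9% higher. Every healthy liver lay above every untreated liver for 10 of 10 genes and for 31.4% of all tested genes. Every treated liver lay above every untreated liver for 8 of 10 genes (19.7% of all tested) and below every healthy liver for 9 of 10 (22.2% of all tested). The median log2 fold change of the 10 genes was −2.18, 1.21 and −0.83 in these comparisons, and that of all tested genes was 0.01, 0.00 and 0.02. The 3 comparisons share groups, so they are not independent of each other.

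**Figure D2:**
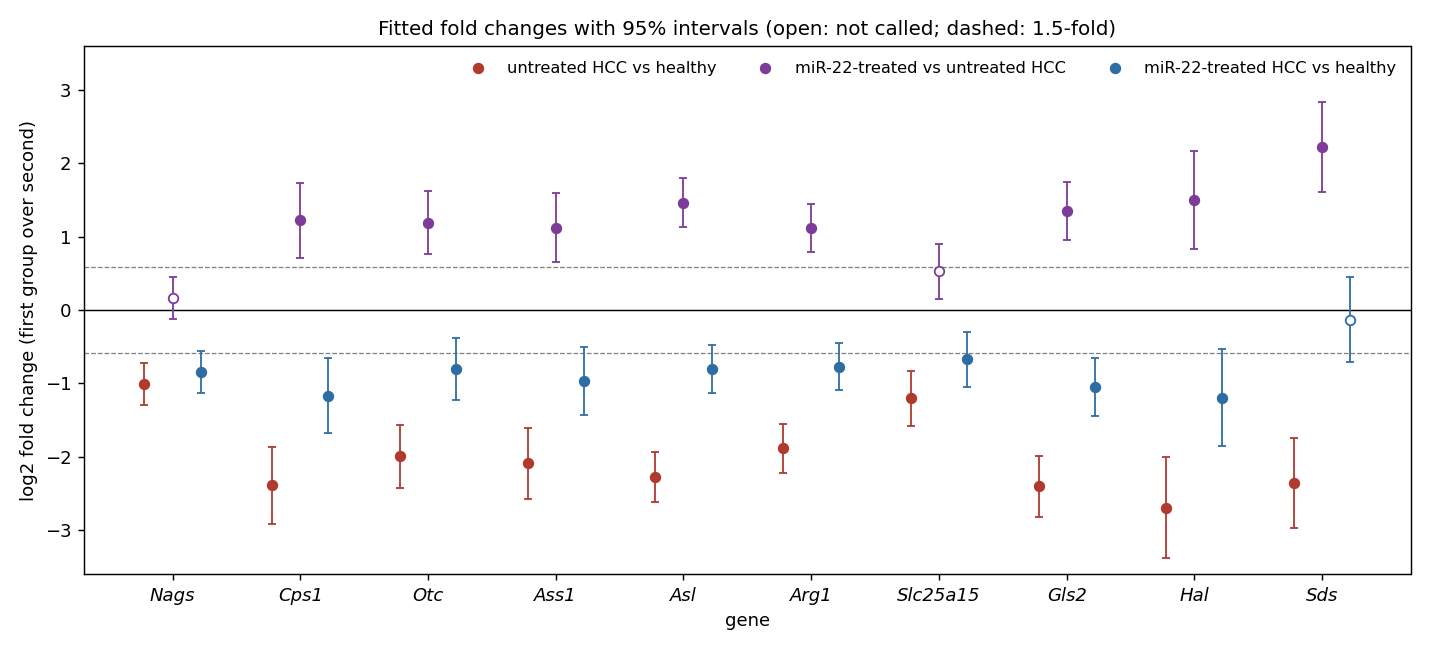
Fitted log2 fold change of each gene in the 3 comparisons, first group over second, with 95% intervals from edgeR. Filled points were called, open points were not, and dashed lines mark 1.5-fold. Nags and Slc25a15 are open for miR-22-treated against untreated HCC, and Sds is open for miR-22-treated HCC against healthy livers.

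The mitochondrial entry to the cycle was led by Cps1 (chr1:67161988-67270418, GRCm39, plus strand, 38 exons). Cps1 stood at 5957, 7455 and 7288 CPM in the healthy livers, at 1337, 977 and 1636 in untreated HCC and at 3389, 3772 and 2051 in miR-22-treated HCC. The groups did not overlap, and the lowest treated liver was above the highest untreated liver. The fall in untreated HCC was 5.24-fold (log2 −2.39 ± 0.245 SE, adjusted p = 4.22e-06), and with miR-22 the level was 2.33-fold higher (95% interval 1.63 to 3.33, adjusted p = 0.00328). Treated livers still held 44.5% of the healthy mean (adjusted p = 0.00211).

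Nags (chr11:102036339-102040303, plus strand, 7 exons), which makes the activator of Cps1, was also lower in untreated HCC. It stood at 91.1, 86.8 and 84.6 CPM in healthy livers, 45.6, 36.7 and 48.3 in untreated HCC and 57.9, 47.6 and 40.6 in miR-22-treated HCC. Both HCC groups lay below every healthy liver and overlapped each other. Nags fell by 1.01 on the log2 scale in untreated HCC (SE 0.131, adjusted p = 3.01e-05), a call that was lost per hepatocyte secretory counts (log2 −0.26, adjusted p = 0.0642). Between treated and untreated HCC the difference was 1.12-fold with a 95% interval of 0.918 to 1.36 (adjusted p = 0.411), so a rise of the size seen for Cps1 lies outside the interval, and the direction turned under 2 other scalings (log2 −0.23 per hepatocyte secretory counts and −0.072 per library total).

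Nags and Cps1 were also set against each other within each liver, where the scaling of the library cancels. There were 1.16 to 1.53 Nags counts per 100 Cps1 counts in healthy, 2.95 to 3.75 in untreated and 1.26 to 1.98 in treated livers. The untreated livers did not overlap either of the other groups, whereas treated and healthy livers overlapped. With 3 livers against 3, an exact permutation test of a single value cannot go below p = 0.1, so such ratios are given as values.

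Otc (chrX:10118503-10187265, plus strand, 10 exons) ran from 554 to 653 CPM in healthy livers, from 127 to 199.6 in untreated HCC and from 258 to 418 in miR-22-treated HCC. The groups did not overlap, and its level with miR-22 was 2.29-fold that of untreated HCC (adjusted p = 0.00129) and 57.5% of the healthy mean. Slc25a15 (chr8:22865516-22889423, minus strand, 7 exons), the mitochondrial ornithine carrier, stood at 479, 514 and 527 CPM in healthy livers, 213, 192 and 256 in untreated HCC and 336, 391 and 227 in miR-22-treated HCC. It fell 2.3-fold in untreated HCC (adjusted p = 7.63e-05). In miR-22-treated HCC 1 liver lay within the untreated range, and the difference from untreated HCC was 1.44-fold (95% interval 1.11 to 1.87, adjusted p = 0.0418), under the fold threshold. The gene was called without the miR-22-treated replicate 4 (log2 0.72, adjusted p = 0.00211) and without the untreated replicate 4 (log2 0.65, adjusted p = 0.025). Without the treated replicate 4 it was no longer called lower than healthy (log2 −0.48, adjusted p = 0.0199). Per 100 Cps1 counts, Slc25a15 ran from 6.90 to 8.04 in healthy, 15.7 to 19.6 in untreated and 9.93 to 11.1 in treated livers, with no overlap.

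**Figure D3:**
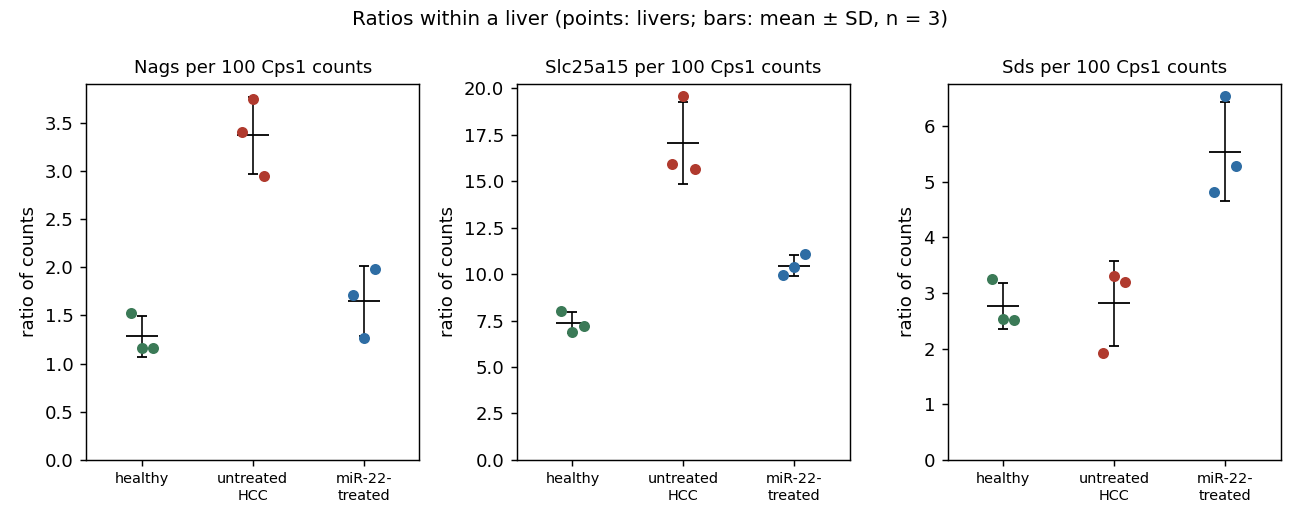
Ratios of counts within each liver, 1 point per liver, with bars for the mean ± SD of 3 livers. Nags and Slc25a15 per 100 Cps1 counts are highest in untreated HCC, and Sds per 100 Cps1 counts is highest in miR-22-treated HCC.

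All 3 cytosolic enzymes were called in all 3 comparisons. Ass1 (chr2:31352181-31410862, plus strand, 16 exons), which joins citrulline and aspartate, ran from 2657 to 2951 CPM in healthy, 479 to 804 in untreated and 1034 to 1803 in treated livers. Asl (chr5:130040099-130058088, minus strand, 16 exons), which yields arginine and fumarate, stood at 669, 729 and 716 CPM in healthy livers, 152, 124 and 162 in untreated HCC and 396, 490 and 323 in miR-22-treated HCC. Arg1 (chr10:24791118-24803817, minus strand, 8 exons), which releases urea, stood at 1486, 1516 and 1602 CPM in healthy, 427, 343 and 477 in untreated and 917, 1037 and 746 in treated livers. For all 3 genes the groups did not overlap. Ass1 fell 4.25-fold in untreated HCC, Asl 4.83-fold and Arg1 3.69-fold, with adjusted p of 5.44e-06, 1.87e-07 and 7.02e-07. With miR-22 they were 2.17-fold, 2.76-fold and 2.17-fold higher than in untreated HCC, with adjusted p of 0.00315, 0.00011 and 0.000502. Treated livers held 51.2%, 57.2% and 58.6% of the healthy means.

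Compared per kilobase of the canonical transcript, Ass1, Cps1 and Arg1 had the highest levels in healthy livers. Ass1 was at 1610 ± 89.2 CPM per kb, Cps1 at 1240 ± 148 and Arg1 at 953 ± 37.4 (SD, n = 3). Asl (265 ± 11.9) and Otc (261 ± 22.7) followed and did not differ beyond their spread. Gls2 (156 ± 9.24), Sds (155 ± 3.95) and Slc25a15 (145 ± 7.17) followed without clear gaps, and Hal (77.3 ± 3.8) and Nags (43.1 ± 1.64) came last. In miR-22-treated HCC Sds, at 142 ± 57.1 CPM per kb, lay beside Asl (152 ± 31.6) and Otc (150 ± 35.8). In untreated HCC Hal became the lowest, at 12 ± 4.72 CPM per kb, below Nags at 21.5 ± 3.

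Gls2 (chr10:128030316-128045873, plus strand, 18 exons), which frees ammonia from glutamine beside Cps1 in periportal mitochondria, stood at 398, 433 and 386 CPM in healthy livers, 68.8, 67 and 94.2 in untreated HCC and 224, 226 and 137 in miR-22-treated HCC. The groups did not overlap. It fell 5.29-fold in untreated HCC (adjusted p = 5.62e-07) and was 2.55-fold higher with miR-22 (adjusted p = 0.000534). Treated livers held 48.2% of the healthy mean (adjusted p = 0.000783).

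Hal (chr10:93324629-93355166, plus strand, 20 exons), the first enzyme of histidine breakdown, had the lowest share of its healthy level in untreated HCC among the 10 genes, although the intervals of several genes overlapped. It stood at 413, 431 and 390.5 CPM in healthy livers, 49.5, 48.7 and 92.5 in untreated HCC and 242, 206 and 93.2 in miR-22-treated HCC. The highest untreated and the lowest treated liver lay side by side, at 92.5 and 93.2. The fall was 6.46-fold (log2 −2.69 ± 0.319 SE, adjusted p = 1.41e-05), and with miR-22 the level was 2.83-fold that of untreated HCC (95% interval 1.78 to 4.49, adjusted p = 0.00455). The 3 enzymes that follow Hal fell too in untreated HCC: Uroc1 (urocanate hydratase) by 1.53, Amdhd1 (imidazolonepropionase) by 1.43 and Ftcd (formiminotransferase cyclodeaminase) by 1.40 on the log2 scale, all called.

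Sds (chr5:120614585-120621997, plus strand, 8 exons), which deaminates serine to pyruvate and is induced by fasting and glucagon, was the gene not called lower than healthy in miR-22-treated HCC. It stood at 193, 189 and 184 CPM in healthy livers, 25.7, 32.3 and 52.4 in untreated HCC and 163, 246 and 108 in miR-22-treated HCC. The treated livers ran from below to above the healthy range, with the widest relative spread of the 10 genes beside Hal. Sds fell 5.11-fold in untreated HCC (adjusted p = 1.6e-05) and was 4.67-fold higher with miR-22 (95% interval 3.05 to 7.14, adjusted p = 0.000351). Against healthy livers the treated level was 0.913-fold, with a 95% interval of 0.61 to 1.37 (adjusted p = 0.739), and its direction turned without the treated replicate 4 (log2 0.12) and under 2 other scalings (log2 0.20 and 0.039). There were 2.52 to 3.24 Sds counts per 100 Cps1 counts in healthy, 1.93 to 3.31 in untreated and 4.81 to 6.53 in treated livers. Treated livers did not overlap the others in this ratio.

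Some of the 10 genes share exonic bases with a gene on the opposite strand, and the libraries do not keep the strand. Sds shares 360 bases with Plbd2 and 92 bases with the lncRNA Gm15690. Plbd2 was at 56.7 to 89.3 CPM in the 9 livers and was not called. Gm15690 followed Sds in its direction, at 10.3 to 13.1 CPM in healthy, 1.59 to 2.42 in untreated and 8.42 to 23.3 in treated livers (adjusted p = 5.9e-05 and 0.000169). Gls2 shares 676 bases with Spryd4 (24.5 to 41.9 CPM, not called), Nags 443 bases with Gm11586 (at most 22 counts in a library) and Arg1 307 bases with Gm36172 (at most 68 counts). Gm36172 was called in the same directions as Arg1, lower in untreated HCC (log2 −1.53, adjusted p = 0.000172) and higher with miR-22 (log2 1.12, adjusted p = 0.00686). Gm11586 was called lower in untreated HCC, as Nags was (log2 −1.21, adjusted p = 0.0405), and was not called with miR-22 (adjusted p = 0.634). How the counts divide over the shared bases was not tested for any of these pairs. Asl shares 67 bases with Gm73169, which was not matched to a row of the counts.

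Within both HCC groups the livers kept much the same order over the 10 genes. How many of all tested genes share this order was not counted, so it is not given as a trait of these genes. Among the untreated livers, replicate 4 was highest for 10 of 10 genes and replicate 3 lowest for 9. Among the treated livers, replicate 4 was lowest for 10 of 10 and replicate 3 highest for 8. The healthy livers had no such order, with replicate 1 highest for 2 genes and lowest for 6, replicate 2 highest for 5 and replicate 3 highest for 3 and lowest for 4. In the HCC groups Akt1 moved the opposite way: in untreated HCC it was lowest in replicate 4 (1170 CPM against 1614 and 1673), and in treated HCC it was highest in replicate 4 (1104 against 798 and 672). Hepatocyte secretory genes (16 genes for plasma proteins) summed to 127000 CPM in untreated replicate 4 against 115200 and 106500, and to 145900 in treated replicate 4 against 150800 and 162400. The part of tumor load or hepatocyte share in the order of the livers was not tested.

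**Figure D4:**
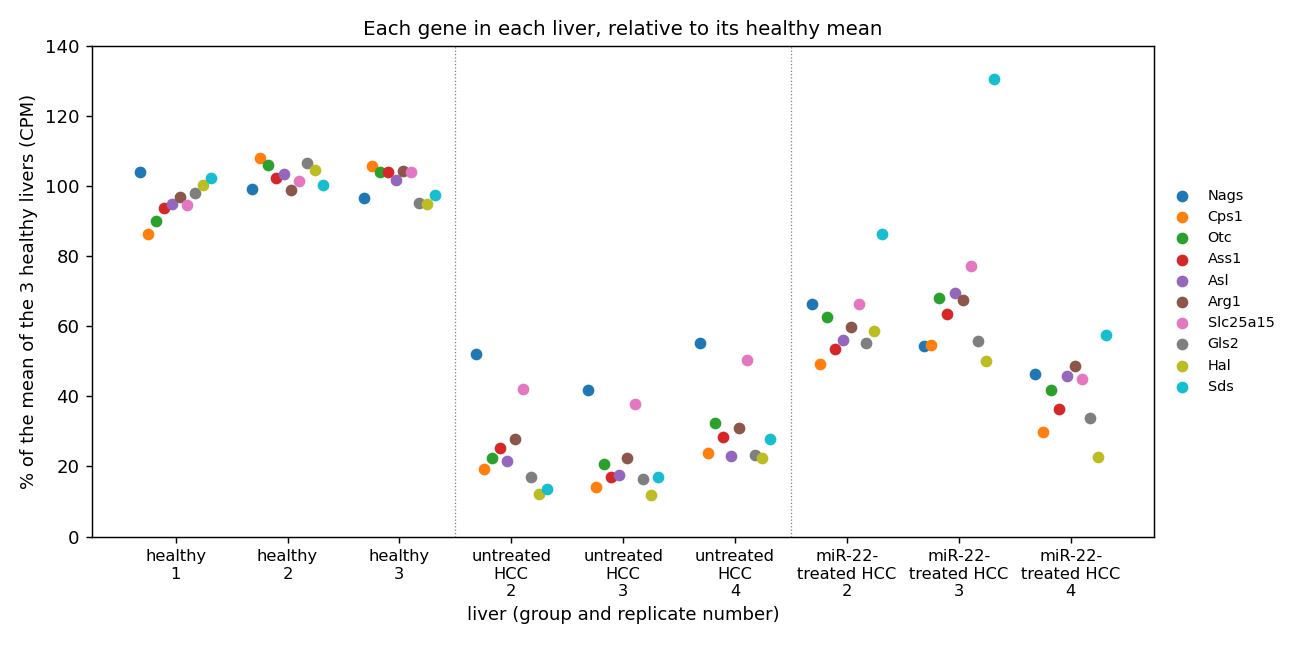
Each gene in each of the 9 livers as a percentage of the mean of the 3 healthy livers, with livers on the horizontal axis by group and replicate number. Among untreated livers replicate 4 holds the highest points, among miR-22-treated livers replicate 4 holds the lowest, and Sds stands above the other genes in every treated liver.

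Hepatocyte secretory genes fell as well in their sum, from 190300 to 203600 CPM in healthy livers to 106500 to 127000 in untreated and 145900 to 162400 in treated livers. Of these 16 genes, 12 were called lower, 1 higher and 3 not called in untreated HCC, and 8 were higher with miR-22. Scaled to their own summed counts, their median log2 fold change in untreated HCC was −0.29, with 3 lower and 2 higher. Setting the 10 genes against them asks whether they moved more than other hepatocyte products. Per 100 secretory counts, Cps1 was at 3.55 ± 0.544 in healthy, 1.12 ± 0.188 in untreated and 1.99 ± 0.509 in treated livers (SD, n = 3). Scaled in this way, 8 of 10 genes were still called lower in untreated HCC, against 6.18% of all genes tested, and 8 of 10 higher with miR-22, against 4.05%. In miR-22-treated HCC against healthy livers the count went from 9 to 4 of 10, against 2.41% of all genes. Nags and Slc25a15 were the genes no longer called in untreated HCC (log2 −0.26 with adjusted p = 0.0642, and −0.46 with adjusted p = 0.00924). This scaling shifted genes at large. Of 15717 tested genes, 8905 were called higher in untreated HCC, 3888 lower with miR-22 and 4538 higher in treated than in healthy livers. Calls in those directions per hepatocyte secretory counts are to be read against these numbers.

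Markers of other liver cells moved with HCC too. The 4 cholangiocyte markers (Krt7, Krt19, Epcam, Sox9) summed to 5.66 to 9.93 CPM in healthy, 85.1 to 136.5 in untreated and 34.8 to 58.5 in treated livers, with 3 of 4 called higher in untreated HCC. Sox9 and Epcam can also be switched on in tumor cells. The 4 fibroblast markers summed to 210.0 to 228 CPM, 689 to 784 and 541 to 638, with Col1a1, Col3a1 and Pdgfrb higher and Dcn lower in untreated HCC. Dcn turned to log2 0.13 per hepatocyte secretory counts, and no fibroblast marker was called lower there, with upper-quartile factors or with library totals. Macrophage markers ran from 234 to 284 CPM in healthy, 215 to 247 in untreated and 270.3 to 283 in treated livers. Of these 4, Cd68 was called higher in untreated HCC (log2 0.68, adjusted p = 0.000724) and in treated against healthy livers (log2 0.63, adjusted p = 0.00271), and 3 of 4 were higher in untreated HCC per hepatocyte secretory counts. T cell markers did not pass 3.72 CPM in any liver, with 0 of 4 called, and 3 of 4 were called higher in untreated HCC per hepatocyte secretory counts. Neutrophil markers summed to 0.252 to 1.7 CPM in healthy, 6.95 to 9.72 in untreated and 6.38 to 10.6 in treated livers, with Ly6g at 0 in all healthy and untreated livers, and both tested markers (S100a8, S100a9) were called higher in untreated HCC. Endothelial markers ran from 168 to 321 CPM over the 9 livers, with Kdr and Stab2 of 4 called lower in untreated HCC, against 0 called with library totals and 2 higher and 0 lower per hepatocyte secretory counts. The background to the macrophage, T cell and endothelial counts per hepatocyte secretory counts is large. There 8905 of all 15717 tested genes were called higher in untreated HCC. The tumor markers Afp and Gpc3 summed to 11.3 to 18.8 CPM in healthy, 1066 to 2056 in untreated and 577 to 993 in treated livers. The proliferation markers Mki67 and Top2a summed to 6.98 to 10.5, 104 to 134 and 62.9 to 95.8 CPM. The part of these cells and markers in the fall of the 10 genes was not tested.

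Most periportal genes outside the 10, such as Pck1 and G6pc of glucose production, moved in the same directions in untreated HCC and with miR-22. Of 22 tested, 17 were called lower and 2 higher in untreated HCC, and 15 were higher with miR-22 and none lower. Pck1 was 6.66-fold and G6pc 6.72-fold higher with miR-22 than without (adjusted p = 2.02e-05 and 0.000221), and neither differed from healthy livers by the test (adjusted p = 0.657 and 0.136), as for Sds. In miR-22-treated HCC against healthy livers, 5 of the 22 were called lower and 2 higher. Of 24 pericentral genes, which mark the opposite end of the lobule, 18 were lower in untreated HCC, 10 were higher and 1 was lower with miR-22, and 18 were lower in treated than in healthy livers. Glul (glutamine synthetase), which captures the ammonia that the cycle misses in the last pericentral hepatocytes, stood at 767 ± 51.9 CPM in healthy, 356 ± 78.9 in untreated and 529 ± 106 in treated livers. It was called lower in untreated HCC (adjusted p = 0.00013), and its 1.49-fold difference with miR-22 was under the fold threshold. Scaled to hepatocyte secretory counts, 12 of 22 periportal and 12 of 24 pericentral genes were lower in untreated HCC. With miR-22, 7 periportal genes were then higher and 2 lower, and 9 pericentral genes were higher and 4 lower. In treated against healthy livers, 2 periportal genes were then lower and 4 higher, and 9 pericentral genes were lower and 1 higher. Among all 15717 tested genes, 972 were lower and 8905 higher in untreated HCC with this scaling. With miR-22 637 were higher and 3888 lower, and 379 were lower and 4538 higher in treated than in healthy livers.

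**Figure D5:**
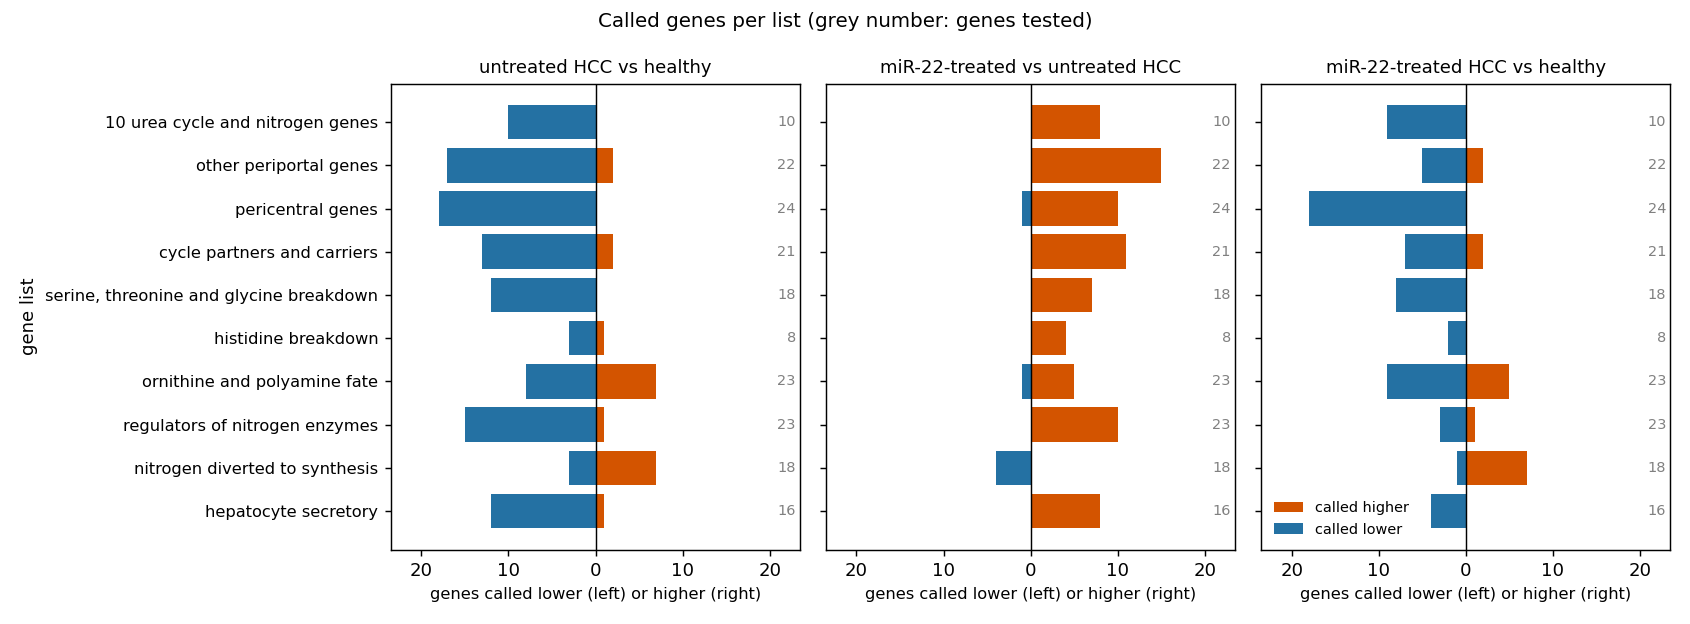
Number of genes called lower (bars to the left) or higher (bars to the right) in each gene list, for the 3 comparisons, with the number of genes tested in grey. All 10 urea cycle and nitrogen genes are lower in untreated HCC, 8 are higher with miR-22 and 9 remain lower than in healthy livers, and the synthesis list is the only one shown with more genes called higher than lower in untreated HCC.

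Of the partners and carriers that feed the cycle, 13 of 21 tested genes were lower and 2 higher in untreated HCC, and 11 were higher with miR-22 and none lower. Car5a, the mitochondrial carbonic anhydrase that supplies bicarbonate to Cps1, went from 162 ± 12.6 CPM to 34.4 ± 10.5 and 81.6 ± 17.5 in healthy, untreated and treated livers. Slc38a3, a periportal glutamine carrier, went from 2691 ± 141 to 563 ± 123 and 1342 ± 369 CPM, and Slc25a13 (citrin, the aspartate carrier that serves Ass1) from 329.8 ± 20.9 to 111 ± 18.4 and 187 ± 24.2. All 3 were called in all 3 comparisons. Slc7a2, which carries arginine and ornithine across the cell membrane, fell 3.86-fold (adjusted p = 2.4e-06) and stood at 570.2 ± 180 CPM in treated against 573 ± 60.1 in healthy livers (adjusted p = 0.978). Glud1 (glutamate dehydrogenase), another source of mitochondrial ammonia, was at 1488 ± 76.5, 1611 ± 141 and 1543 ± 95.3 CPM and was not called in any comparison (adjusted p = 0.435 to 0.765). Per hepatocyte secretory counts, 7 of the 21 were lower and 5 higher in untreated HCC, and 6 were higher and 2 lower with miR-22. Among all 15717 tested genes 972 were then lower and 8905 higher in untreated HCC, and 637 were higher and 3888 lower with miR-22.

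Genes for the other fates of ornithine and proline were called in both directions. In untreated HCC 8 of 23 tested were lower and 7 higher, and per hepatocyte secretory counts 7 were lower and 11 higher. With miR-22 5 were higher and 1 lower, against 3 higher and 6 lower per hepatocyte secretory counts. With that scaling 972 of all 15717 tested genes were lower and 8905 higher in untreated HCC, and 637 were higher and 3888 lower with miR-22. Oat, which turns ornithine toward glutamate and proline, fell to 36.2% of the healthy mean (adjusted p = 4e-05) and Prodh (proline dehydrogenase) to 14.6% (adjusted p = 2.45e-07). Aldh18a1, which opens proline and ornithine synthesis from glutamate, rose from 0.93 ± 0.338 CPM to 20.4 ± 1.69 and was at 10.5 ± 1.2 with miR-22. Odc1 (ornithine decarboxylase of polyamine synthesis) was at 108 ± 7.48, 108 ± 8.05 and 98 ± 7.12 CPM and was not called.

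Genes that spend nitrogen on synthesis were called in both directions in untreated HCC. Of 18 tested, 7 were higher, 3 lower and 8 not called in untreated HCC, and 4 were lower with miR-22 and none higher. Phgdh and Psat1, which make serine, rose from 0.44 ± 0.125 and 0.82 ± 0.396 CPM in healthy livers to 44.8 ± 8.16 and 45.3 ± 4.37 in untreated HCC, and were at 22 ± 7.97 and 23.1 ± 7.44 with miR-22. Asns (asparagine synthetase) went from at most 5 counts per healthy library to 11.3 ± 2.57 CPM in untreated HCC and 6.97 ± 1.63 in treated livers. Sds, which breaks serine down, thus fell in the livers where the serine-making enzymes rose. Of 18 genes of serine, threonine and glycine breakdown, 12 were lower in untreated HCC and none higher, and 7 were higher with miR-22. Per hepatocyte secretory counts 7 of these 18 were lower and 2 higher in untreated HCC, and 3 were higher with miR-22. Of the synthesis genes 11 were then higher and none lower in untreated HCC, and 9 were lower with miR-22. That scaling left 972 of all 15717 tested genes lower and 8905 higher in untreated HCC. With miR-22 it left 637 higher and 3888 lower, so the synthesis counts follow the direction of all genes. Cad, which makes carbamoyl phosphate in the cytosol for pyrimidines, was at 37.1 ± 6.53, 40.2 ± 1.9 and 28.1 ± 4.26 CPM and was not called, so Cps1 counts per Cad count went from 163 to 218 in healthy to 24.9 to 38.6 in untreated livers and 75 to 155 with miR-22.

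The remaining counterparts were scarce. Arg2, the second arginase, did not pass 15 counts in any library and was not called. Slc25a2, the second ornithine carrier, did not pass 6 counts in any library and was left out by the filter. Sdsl, a serine dehydratase-like gene, was at 11.9 to 15.2 CPM in healthy, 9.42 to 12.7 in untreated and 11.7 to 14.3 in treated livers and was not called in any comparison.

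Transcription factors and receptors known to act on nitrogen enzymes were tested as a list of 23, of which 15 were lower and 1 higher in untreated HCC, and 10 higher and none lower with miR-22. Klf15, which promotes amino acid breakdown, was at 177 ± 17.6 CPM in healthy, 48.4 ± 10.5 in untreated and 157 ± 57 in treated livers (adjusted p = 1.6e-05 and 0.000431), and treated did not differ from healthy livers by the test (adjusted p = 0.572). Gcgr, the glucagon receptor, was at 254 ± 20.7, 117 ± 22.8 and 193 ± 2.97 CPM (adjusted p = 1.06e-05 and 0.00196). Ppara, the fatty acid sensor of fasting, fell by 1.92 on the log2 scale in untreated HCC and was higher by 1.44 with miR-22. Per hepatocyte secretory counts 2 of the 23 were lower and 4 higher in untreated HCC, and 4 were higher and 2 lower with miR-22. For all 15717 tested genes these numbers were 972 lower and 8905 higher, and 637 higher and 3888 lower.

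The promoters were read for letters that such factors can bind. Fall and rise are ranked here by the estimates alone, and the intervals of several genes overlapped in both. Of the promoters 2 are shown: Hal with the deepest fall and the most matches, and Sds with the largest rise. Each is the 250 bases before the start of the canonical transcript on GRCm39, plus strand, with matches in capitals (in either orientation).
Hal, chr10:93324379-93324628: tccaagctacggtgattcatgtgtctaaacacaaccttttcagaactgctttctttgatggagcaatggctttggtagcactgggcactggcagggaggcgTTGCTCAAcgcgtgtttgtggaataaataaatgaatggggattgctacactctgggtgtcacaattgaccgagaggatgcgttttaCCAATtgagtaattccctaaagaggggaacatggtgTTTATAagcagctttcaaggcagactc
Sds, chr5:120614335-120614584: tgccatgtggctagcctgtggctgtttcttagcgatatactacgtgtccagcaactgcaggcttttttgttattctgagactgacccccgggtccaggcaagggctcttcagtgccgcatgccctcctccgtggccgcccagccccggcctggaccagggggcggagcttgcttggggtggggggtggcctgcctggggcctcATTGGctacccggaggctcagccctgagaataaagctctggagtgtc
The C/EBP letters TTGCNNAA were present in Hal alone of the 10 genes and in 8.32% of 13362 promoters of tested genes. The CCAAT box letters CCAAT stood in Cps1, Gls2, Hal and Sds and in 35.6% of all promoters. The CRE core TGACG stood in Gls2 and Nags (22.2% of all), the TATA letters TATAAA in Hal (7.67%) and the HNF4 motif AAAGTCC in none of the 10 (3.96%). No letters searched were shared by all genes that moved together, and distant enhancers, through which several of these genes are known to be controlled, were not searched.

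The genes whose profile over the 9 livers lay closest to each cycle enzyme were sought by the root mean square difference of centred log2 values, with 3 genes named per enzyme. For Cps1 these were Acss3, Macrod1 and Dhtkd1, at 0.11 to 0.13 log2 units. Ass1 and Gls2 ranked 5 and 6 of 15716 genes for Cps1, Otc 29 and Asl 32, whereas Slc25a15 ranked 600, Sds 715 and Nags 1171. For Otc the closest were Acsm1, Cyp4f14 and Pigr, for Ass1 Gm12909, Pecr and Paox, for Asl Gm4737, Ahcy and Mat1a, and for Arg1 Aadat, Amy1 and Ghr. With 3 groups of 3 livers the likeness mostly reflects the differences between groups, and it is given as a description.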

How the data were processed

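RNA-seq of 9 mouse livers was used. Libraries were non-directional, and per the submitters' processing notes and the study's methods reads were checked with FastQC 0.11.7, quantified with Salmon on GRCm39, summed per gene and normalised with DESeq2 1.18. The authors deposited raw counts per gene as whole numbers, which were used for every result. A second deposited table holds the same counts divided by 1 constant per library and was not used. Groups were taken from the sample labels.

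Counts were fitted in R 4.3.3 with edgeR 4.0.16 (glmQLFit and glmQLFTest, two-sided; TMM and filterByExpr; all 3 groups fitted together, with no covariates), leaving 15717 of 55401 genes. Calls needed a fold change above 1.5 and an adjusted p (Benjamini-Hochberg) below 0.05, which are the study's thresholds. Standard errors are those of log2 fold changes. Depth was 16664659 to 23908392 counts per library, and no pair of livers agreed within sampling noise (chi-square per degree of freedom 6.37 to 30.2). The members, the related lists and the rule for named genes (all 10 members, their fixed counterparts, up to 4 genes with the smallest p per list and comparison, and the 3 nearest profiles per cycle enzyme) were chosen with earlier results of these data known. Oat, Odc1, Slc25a13, Slc38a3, Car5a, Glud1, Gcgr, Amdhd1, Mir22hg and the overlapping genes were named after their values were seen. Loci, 3′ UTRs and promoters came from GENCODE vM39 on GRCm39, matched by gene ID for all 10 members, while the authors name GRCm39 with a GENCODE release number that could not be matched to a mouse release on that build, so gene models may differ. The alternatives were DESeq2 1.42.0, other scalings and filters, glmTreat, no fold threshold, 2-group fits, a replicate block and each liver left out. One counterpart gene and 1 promoter are not reported here.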

Additional observations from a re-analysis of the deposited data

How the results depend on the processing

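Across 20 alternatives, 571 of 600 gene-level log2 fold changes kept their direction and their side of the threshold, 21 lost the call, 3 gained it and 5 turned. The 10 genes called lower in untreated HCC stayed 10 except per hepatocyte secretory counts (8). Genes higher with miR-22 numbered 8 and fell to 5 under glmTreat, which tests against 1.5-fold directly (Cps1, Ass1 and Hal lost, adjusted p = 0.0636, 0.0813 and 0.0527). Genes lower in miR-22-treated than healthy livers numbered 9, and were 4 per hepatocyte secretory counts and 2 under glmTreat (Cps1 and Gls2 remaining). Leaving out 1 liver gave 10, then 8 to 9, then 8 to 9. Nags against untreated HCC turned to −0.23 per hepatocyte secretory counts and −0.072 per library total, and Sds against healthy livers to 0.20, 0.039 and, without the treated replicate 4, 0.12 (−0.48 to 0.12 over all livers left out). Those scalings moved the median log2 fold change of all genes to 0.76, −0.40 and 0.38 (secretory) and to 0.43, −0.23 and 0.21 (library totals, chosen after seeing the data). The share of calls that were higher went from 55.7%, 60.4% and 70.6% to 90.2%, 14.1% and 92.3%, and to 80.0%, 27.8% and 85.2%. Under glmTreat the share was 88.2% of calls with miR-22 against untreated HCC and 85.4% against healthy livers, and without the treated replicate 3 it was 71.0%. Counts for the related lists and markers moved by over 1.5 times, or to or from none, in 234 of 2160 cases, most often per hepatocyte secretory counts.

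Deviations of same-numbered untreated and treated livers from their group means correlated at −0.144, −0.189 and −0.279 across genes. Livers with different numbers correlated at −0.0074 to 0.188. With 3 livers a group these values cannot decide whether same-numbered livers share a litter, cage or injection day. With the replicate block the counts were 10, 8 and 7, Slc25a15 (log2 −0.68, adjusted p = 0.072) and Hal (log2 −1.18, adjusted p = 0.0686) losing the call against healthy livers. With 3 livers a group, depth did not limit the 10 genes, and the interval widths come from the spread between livers.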

Other observations

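Of 8 tested genes of histidine breakdown, 3 were lower and 1 higher in untreated HCC, and 4 were higher with miR-22. Per hepatocyte secretory counts 3 were lower and 2 higher in untreated HCC, and 1 was higher and 1 lower with miR-22. All 15717 tested genes gave 972 lower and 8905 higher there, and 637 higher and 3888 lower with miR-22. Carns1, which makes carnosine, was the gene that rose (log2 1.16, adjusted p = 0.00901). Gnmt, which methylates glycine and clears excess S-adenosylmethionine, fell by 3.14 on the log2 scale in untreated HCC and was higher by 1.59 with miR-22 (adjusted p = 2.79e-07 and 0.000531). Slc7a1, the broadly expressed arginine carrier, was at 1.42 ± 0.474 CPM in healthy, 9.41 ± 3.00 in untreated and 5.69 ± 0.775 in treated livers (SD, n = 3). It was called higher than in healthy livers in both untreated (log2 2.72, adjusted p = 5.91e-06) and treated HCC (log2 1.99, adjusted p = 0.000259).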
